A study of Mus musculus with 14 samples.

Results

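The expression of 42 genes that drive or mark the cell cycle was described in mouse livers 8 h after an injection of concanavalin A (ConA), a plant lectin that activates T cells and causes an immune-mediated hepatitis. The genes were taken by symbol from a fixed list, and all 42 were among the 17656 genes in the deposited tables. They comprised 6 genes of G1 (Myc and the D-type and E-type cyclins), Wee1, 10 genes of S phase, and 25 genes of G2 and mitosis. The libraries came from 14 C57BL/6 mice aged 8 weeks, 1 liver per mouse. Wild-type (WT) mice received saline (3 mice) or ConA at 8 mg/kg through the tail vein (4 mice), and mice labelled as knockouts of Ythdf1 (Ythdf1-/-, written KO below) received saline (3 mice) or the same ConA dose (4 mice). YTHDF1 is a reader of m6A, a methyl mark on RNA, and as the study describes it the gene was disrupted in the whole animal by CRISPR/Cas9, so every liver cell type of a KO mouse carries the change.

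In a dividing cell, mitogens raise MYC and the D-type cyclins in G1, cyclin E then helps to release the E2F factors from the RB proteins, and E2F activates the genes that license and copy DNA. The G2 and mitosis genes follow later, when the DREAM repressor complex leaves their promoters and the activators B-MYB and FOXM1 take over. Hepatocytes of an adult liver rest outside the cycle and can re-enter it after injury or loss of tissue. In whole-liver RNA, more cells of one type and more RNA per cell cannot be told apart.

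The promoters of these genes carry known signals for the phases, which are shown here because their shares differ between S phase and mitotic genes and come from sequence alone. Promoter windows of 300 bases (250 before and 50 after a RefSeq start, build GRCm38.p6) were given for 32 of the 42 genes, in 36 windows. Windows were searched on both strands for CCAAT (bound by NF-Y), for TTTGAA (the core of the cell cycle homology region, CHR, read by DREAM), for TTCCCGC or TTGGCGC (cores of E2F sites) and for CACGTG (the E-box, bound by MYC and MAX among others). The E2F cores were found in 6 of 11 windows of S phase genes (54.5%), in 3 of 22 windows of G2 and mitosis genes (13.6%), and in 6.8% of all 32851 windows. The CHR core was found in 16 of the 22 windows of G2 and mitosis genes (72.7%), in 1 of 11 windows of S phase genes, and in 17.9% of all windows. CCAAT was present in 90.9% of S phase windows and 81.8% of mitotic windows, against 37.4% of all windows. The E-box was present in 2 of the 36 windows (5.6%), those of Tyms and Anln, against 7.2% of all windows. In 2 genes (Ccnb1 and Mcm7) a CCAAT match shared bases with an E2F core. A match describes letters only, and no window was given for Myc, Ccnd1, Ccnd2, Ccne2, Wee1, Mcm4, Ccna2, Aurkb, Kif20a or Tpx2.

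Stretches that end before the start are printed 5′ to 3′ on the strand of the gene, with the matches in capitals. Mcm6 is given for its pair of E2F cores (TTGGCGC) with 2 reversed CCAAT boxes (ATTGG), at chr1:128359706-128359826 on the minus strand, in no annotated exon. Tyms is given for its E-box (CACGTG), at chr5:30073651-30073716 on the minus strand, in no annotated exon. Aurka is given for 2 CCAAT boxes, at chr2:172370573-172370633 on the minus strand, in no annotated exon. Its CHR core lies after the start and is not printed. Ube2c (chr2:164769689-164769917, plus strand) and Cdk1 (chr10:69352913-69353132, minus strand) are given for the CCAAT boxes and CHR cores of mitotic genes, the first with a CHR core read as TTCAAA on the printed strand and the second with 2 as TTTGAA and an E2F core (TTGGCGC), and 20 and 26 bases of these stretches lie in exons of other transcripts of the same gene.
Mcm6: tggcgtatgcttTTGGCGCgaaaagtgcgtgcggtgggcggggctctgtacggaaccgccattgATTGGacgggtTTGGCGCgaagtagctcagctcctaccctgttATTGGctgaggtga
Tyms: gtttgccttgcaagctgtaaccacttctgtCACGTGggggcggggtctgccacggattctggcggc
Aurka: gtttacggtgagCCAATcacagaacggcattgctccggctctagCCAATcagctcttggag
Ube2c: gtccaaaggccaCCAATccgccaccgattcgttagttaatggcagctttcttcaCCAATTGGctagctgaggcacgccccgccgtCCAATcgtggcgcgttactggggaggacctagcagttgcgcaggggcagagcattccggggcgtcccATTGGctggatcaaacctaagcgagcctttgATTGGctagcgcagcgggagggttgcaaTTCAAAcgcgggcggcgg
Cdk1: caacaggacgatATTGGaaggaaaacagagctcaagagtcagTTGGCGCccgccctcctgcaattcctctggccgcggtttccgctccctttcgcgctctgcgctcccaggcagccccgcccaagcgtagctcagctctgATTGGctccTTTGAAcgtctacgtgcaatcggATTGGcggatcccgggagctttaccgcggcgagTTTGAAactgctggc

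Levels are given in TPM, the transcripts of a gene per 1000000 transcripts, a unit scaled for gene length, so that levels of different genes can be set side by side. TPM holds no read numbers, which leaves the depth of each library unknown and the variation among mice as the sole error. Between 2230 and 2701 genes per library were listed at 0, and 9853 to 10793 had 1 TPM or more. WT saline replicates 2 and 3 lay closer to each other than any other pair of the same group (median size of the log2 ratio 0.0735 over 8743 genes, against 0.1195 to 0.4182 in the other 17 pairs), and results that changed when these libraries were averaged are given both ways. Replicate 3 of either ConA group stood apart from the other ConA libraries of its group, in which the pairs with replicate 3 had ratios of 0.2523 to 0.4182. Ythdf1 itself ranged from 12.03 to 13.92 TPM in WT saline livers and from 15.54 to 26.17 TPM in the other 3 groups, and KO saline livers were above WT saline livers by 0.53 on the log2 scale (limma adjusted p = 0.0181). It is a value for the whole gene, which can include reads from outside the disrupted part, so it does not check the genotype labels.

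Of the 42 genes, 17 were under 1 TPM in all 14 livers. They were Ccne2, Uhrf1 and 15 of the 25 G2 and mitosis genes (Cdk1, Ccnb1, Aurkb, Bub1, Bub1b, Plk1, Kif11, Kif20a, Kif23, Tpx2, Cenpe, Cenpf, Racgap1, Anln and Prc1), and their highest value was 0.85 TPM (Ccnb1 in a WT ConA liver). Only 8 genes reached 1 TPM in every liver, namely Myc, Ccnd1, Ccnd3, Pcna, Mcm7, Rrm2, Tyms and Pttg1. The other 17 crossed this level in some livers. Tests were run in limma on log2(TPM + 1), a scale that understates the change of low genes. A gene entered a test if the number of libraries with 1 TPM or more was no less than the size of the smaller group, and it was called if its p, adjusted by Benjamini and Hochberg's method over all genes tested, was under 0.05. A low gene can pass this filter through the group in which it is high. In the ConA comparison of WT mice that was the case for Ccnd2, Mcm2, Mcm4 and Mcm6, which were under 1 TPM in each WT saline liver, and in that of KO mice for Ccne1 and Mcm4, which were under 1 TPM in each KO saline liver.

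The first question was which of these genes moved with ConA in WT mice. Myc, Ccnd2, Mcm3, Mcm4 and Mcm6 rose, and Ccnd3, Wee1, Tyms and Aurka fell, so 9 of the 17 genes tested were called (5 higher and 4 lower). Over all 10768 genes tested, 53.0% were called (22.0% higher and 31.0% lower). The called share of these genes is therefore near that of all genes. The median log2 fold change of the 17 was 0.37, beside -0.07 over all genes tested. This median includes Ccnd2, Mcm2, Mcm4 and Mcm6, which entered the test through the ConA livers. Of these, Ccnd2, Mcm4 and Mcm6 are also among the 5 higher genes. Such entry favours a rise, so neither value measures a shift of the whole set. In KO mice, 13 of 17 tested genes were called after ConA (9 higher and 4 lower), beside 64.6% of 10988 genes (33.9% higher and 30.7% lower). Myc, Ccnd1, Ccnd2, Ccne1, Mcm3, Mcm4, Mcm6, Mcm7 and Rrm2 rose, and Ccnd3, Tyms, Aurka and Pttg1 fell, with a median of 0.49 beside 0.07 over all genes. Ccne1 and Mcm4 entered the KO test through the ConA livers, so the same limit holds for the KO values. No gene that was called in both genotypes had opposite signs. Both comparisons use their own saline group, so they share no library.

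**Figure D1:**
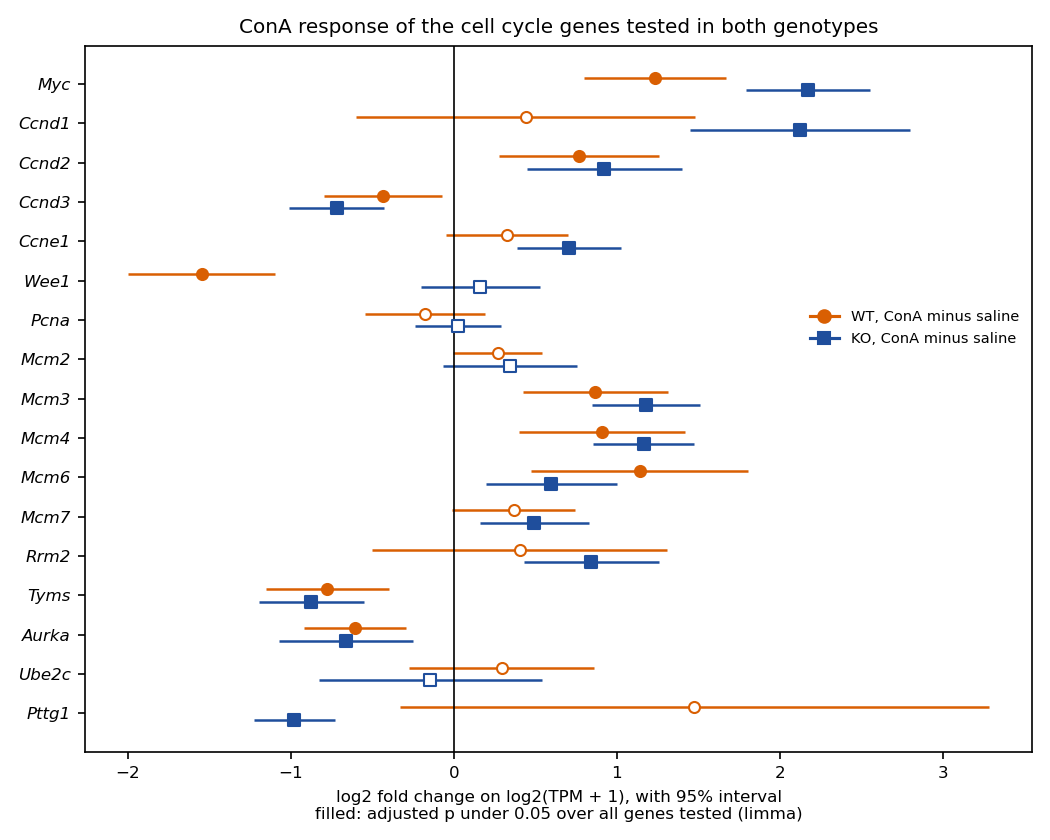
Log2 fold change (x axis, on log2(TPM + 1), with 95% interval) of the 17 cell cycle genes tested in both genotypes, ConA minus saline, WT as orange circles and KO as blue squares, filled where the adjusted p was under 0.05 (limma). Myc sits at 1.23 in WT and 2.17 in KO, Wee1 at -1.54 in WT and 0.16 in KO, and the wide WT interval of Pttg1 spans 0.

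Among the G1 genes, Myc, the transcription factor that couples mitogens to growth and to cyclin expression, rose after ConA in both genotypes. It was at 3.05, 1.74 and 1.68 TPM in WT saline livers, 1.96, 1.31 and 2.05 in KO saline, 7.04, 6.71, 4.87 and 6.70 in WT ConA and 10.34, 10.04, 13.26 and 12.28 in KO ConA. All ConA livers were above all saline livers, and all KO ConA livers were above all WT ConA livers. The log2 fold change after ConA was 1.23 (SE 0.19, limma adjusted p = 0.000602) in WT and 2.17 (SE 0.17, limma adjusted p = 1.39e-06) in KO. The response was larger in KO by 0.94 (SE 0.26, interaction in limma, adjusted p = 0.0483). That call was lost when WT saline replicates 2 and 3 were averaged (1.04, limma adjusted p = 0.104) and under 17 of 22 alternatives in all, always with the same direction. Between KO ConA and WT ConA livers the difference of 0.77 missed the threshold (SE 0.17, limma adjusted p = 0.0668), and the saline groups overlapped.

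Ccnd1 encodes cyclin D1, the partner of CDK4 and CDK6 that rises in hepatocytes as they leave quiescence. Its values were 6.43, 18.25 and 15.93 TPM in WT saline, 6.39, 7.85 and 15.79 in KO saline, 34.39, 17.92, 17.84 and 7.79 in WT ConA and 30.52, 66.89, 49.06 and 37.06 in KO ConA. The WT groups overlapped, and the KO groups did not. Ccnd1 rose in KO mice by 2.12 (SE 0.31, limma adjusted p = 0.000116), about 4.58-fold by mean TPM, while the WT difference was 0.44 with an interval from -0.60 to 1.48 (limma adjusted p = 0.45). The difference between these responses was 1.68 and did not pass (SE 0.62, interaction in limma, adjusted p = 0.115). Between ConA groups the KO livers were 2.36-fold higher by mean TPM, which also missed the threshold on the log2 scale (limma adjusted p = 0.119), and 1 WT liver at 34.39 TPM lay within the KO range. The exons of Ccnd1 share 23.4% of their bases with LTO1 on the opposite strand, and whether counting used strand is not given.

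Ccnd2, the cyclin D2 gene, is a further CDK4 and CDK6 partner. It was at 0.65, 0.42 and 0.55 TPM in WT saline, 1.07, 0.82 and 1.29 in KO saline, 2.47, 2.07, 0.80 and 1.46 in WT ConA and 4.09, 3.69, 2.30 and 1.91 in KO ConA. Each ConA group lay above its own saline group, and replicate 3 was the lowest WT ConA liver. All KO saline livers were above all WT saline livers, a difference not tested in the main fit. The rise was 0.77 in WT (limma adjusted p = 0.0143) and 0.92 in KO (limma adjusted p = 0.00298). The WT call was lost with the alike saline libraries averaged (limma adjusted p = 0.0508) and without WT saline replicate 2 (limma adjusted p = 0.0581). It held under 10 other alternatives. Without WT ConA replicate 1, 2 or 4, or with a filter at 5 TPM, Ccnd2 failed the filter and was not tested in WT. In the KO mice the call held under all 14 alternatives in which Ccnd2 was tested.

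Ccnd3, the cyclin D3 gene, was the most abundant of the G1 genes in saline livers and moved the other way. Its values were 42.30, 46.87 and 43.26 TPM in WT saline, 47.96, 57.28 and 47.53 in KO saline, 28.54, 42.83, 31.06 and 28.88 in WT ConA and 34.55, 31.58, 26.52 and 29.82 in KO ConA. In KO mice every ConA liver was below every saline liver, a fall by 0.72 on the log2 scale (SE 0.13, limma adjusted p = 0.000647). In WT mice replicate 2 at 42.83 TPM fell within the saline range. That difference of -0.43 passed narrowly (SE 0.16, limma adjusted p = 0.0463) and was lost under 11 of 16 alternatives. With WT saline replicates 2 and 3 averaged it was -0.42 (limma adjusted p = 0.13). Saline livers therefore held more Ccnd3 than Ccnd1 in all 6 cases, while Ccnd1 exceeded Ccnd3 in 3 of the 4 KO ConA livers and in 1 of the 4 WT ConA livers.

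The E-type cyclins, which drive CDK2 at the start of S phase, were low. Ccne1 was at 1.27, 0.71 and 0.93 TPM in WT saline, 0.51, 0.29 and 0.28 in KO saline, 1.46, 1.74, 1.73 and 0.98 in WT ConA and 1.17, 1.39, 1.39 and 0.94 in KO ConA. It rose in KO mice by 0.71 (SE 0.14, limma adjusted p = 0.0013), without overlap, having entered the test through the ConA livers, and stood at 0.33 in WT mice (limma adjusted p = 0.125). The ConA groups covered much the same range. All KO saline livers were below all WT saline livers, a difference not tested in the main fit. Ccne2 ran from 0.15 to 0.81 TPM and was not tested.

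**Figure D2:**
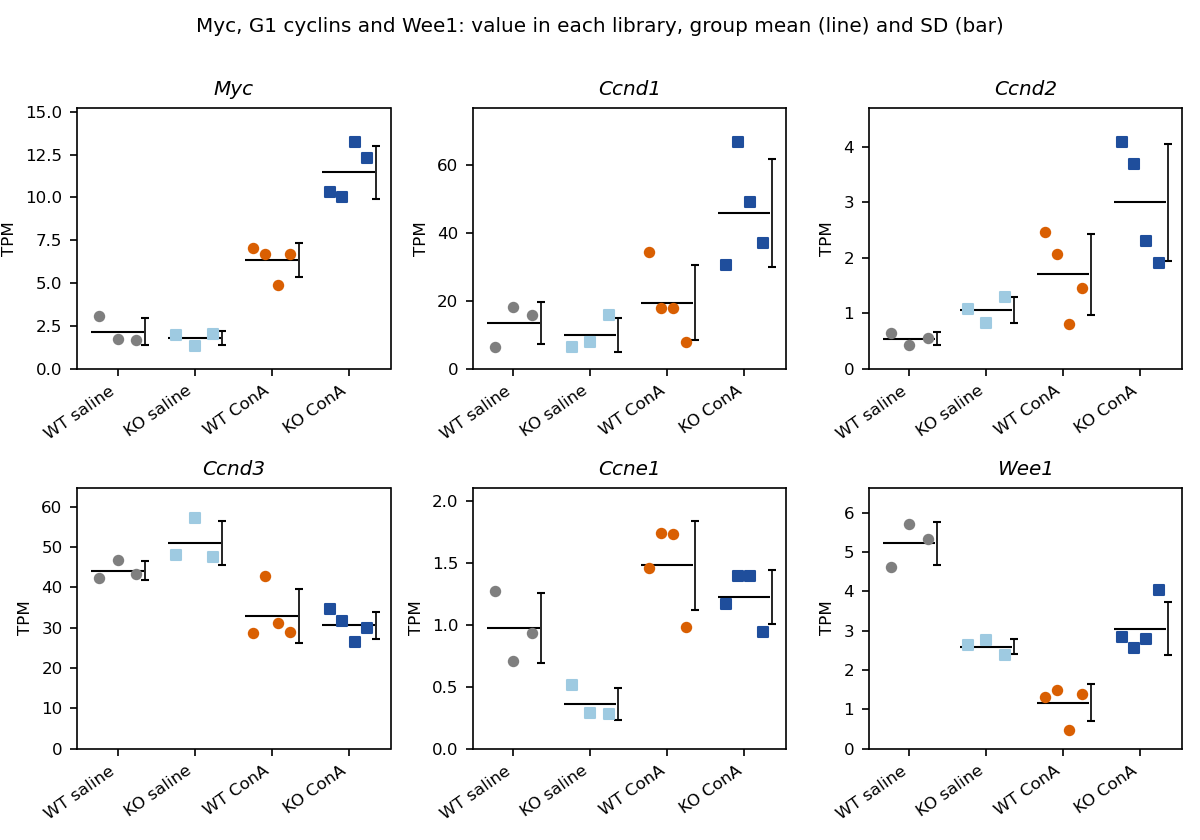
TPM (y axis) of Myc, 4 G1 cyclins and Wee1 in each of the 14 livers, by group (x axis, each point 1 mouse), with the group mean as a line and the SD as a bar. Myc separates all 4 KO ConA livers (10.04 to 13.26) from all 4 WT ConA livers (4.87 to 7.04), and Wee1 runs from 4.62 to 5.70 in WT saline down to 0.48 to 1.49 in WT ConA, with both KO groups between 2.38 and 4.03.

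Wee1 encodes the kinase that holds CDK1 in its inactive, phosphorylated state before mitosis, and its promoter is a known target of the circadian clock. Of the 18 genes tested in the interaction, it had the smallest adjusted p. Its values were 4.62, 5.70 and 5.34 TPM in WT saline, 2.63, 2.76 and 2.38 in KO saline, 1.32, 1.49, 0.48 and 1.39 in WT ConA and 2.84, 2.56, 2.78 and 4.03 in KO ConA. WT saline livers were above every other liver, WT ConA livers were below every other liver, and the KO groups overlapped in between. The mean was 5.22 ± 0.55 TPM (SD, n = 3) in WT saline and 2.59 ± 0.19 (SD, n = 3) in KO saline.

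After ConA, Wee1 fell by 1.54 on the log2 scale in WT mice (SE 0.20, limma adjusted p = 0.00019). In KO mice it differed by 0.16 with an interval from -0.20 to 0.53 (limma adjusted p = 0.405). The interaction was 1.71 (SE 0.26, limma adjusted p = 0.00785) and kept its call under all 21 alternatives in which it was tested. With the lowest WT ConA liver, replicate 3 at 0.48 TPM, left out, the WT fall was 1.37 and the interaction 1.53, both still called. In saline mice 2 of 12 tested genes were called, beside 19.2% of 10459 genes (6.30% higher and 12.9% lower), and Wee1 was the one that was lower in KO, by 0.79 (SE 0.10, limma adjusted p = 0.00994). That saline call was lost when the alike WT saline libraries were averaged (limma adjusted p = 0.0678) or when either of them was left out (limma adjusted p = 0.0635 and 0.0779). The interaction and the saline comparison share the saline libraries and are not independent of each other.

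Between the ConA groups none of 17 tested genes was called, beside 0.428% of 10519 genes (0.342% higher and 0.0856% lower in KO). At an unadjusted p under 0.05 in limma there were 5 of these genes (Myc, Ccnd1, Ccnd2, Wee1 and Mcm3, all higher in KO) and 1753 genes in all. Wee1 was higher in KO by 0.92 without overlap (SE 0.20, limma adjusted p = 0.0669). It passed with the replicate number as a block (limma adjusted p = 0.0496) and with all 14 libraries in the fit (limma adjusted p = 0.00973), as Myc did in the latter (limma adjusted p = 0.0179). Over all genes tested, 4.78% were called in the interaction (2.64% higher and 2.14% lower), and of 18 genes tested here Wee1 and Myc were. The interaction had a median of 0.14 over these genes and 0.14 over all genes, and rescaling the libraries moved the latter to 0.03. In that scaling the interaction of Wee1 kept its call and that of Myc did not (0.84, limma adjusted p = 0.0749).

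Of the S phase genes, Mcm3, Mcm4 and Mcm6 rose and Tyms fell in both genotypes, and Mcm7 and Rrm2 rose in KO. MCM2 to MCM7 form the ring-shaped helicase that is loaded on origins in G1. Mcm3 was at 2.20, 0.93 and 1.23 TPM in WT saline, 1.56, 1.43 and 1.62 in KO saline, 4.06, 2.93, 2.89 and 3.74 in WT ConA and 4.98, 5.38, 4.57 and 4.08 in KO ConA. Mcm4 was at 0.59, 0.65 and 0.77, then 0.89, 0.71 and 0.85, then 3.40, 1.83, 1.17 and 2.58, and then 3.09, 3.40, 2.83 and 2.99 TPM in the same order of groups. Both were higher in every ConA liver than in any saline liver. Mcm3 rose by 0.87 in WT (SE 0.20, limma adjusted p = 0.00495) and by 1.18 in KO (SE 0.15, limma adjusted p = 4.84e-05). Mcm4 rose by 0.91 in WT (SE 0.23, limma adjusted p = 0.00761) and by 1.17 in KO (SE 0.14, limma adjusted p = 3.11e-05), and in both genotypes it entered the test through the ConA livers. All KO ConA livers had more Mcm3 than all WT ConA livers, 4.08 against 4.06 TPM at the closest, and the difference of 0.39 was not called (SE 0.16, limma adjusted p = 0.258).

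Mcm6, whose E2F cores are printed above, was at 0.83, 0.05 and 0.00 TPM in WT saline, 1.55, 1.23 and 0.98 in KO saline, 3.35, 1.81, 1.25 and 1.05 in WT ConA and 2.66, 3.19, 2.19 and 1.71 in KO ConA. The alike WT saline replicates 2 and 3 were those at or near 0. All KO saline livers were above all WT saline livers, a difference not tested in the main fit. The rise of Mcm6 was 1.14 in WT (SE 0.29, limma adjusted p = 0.00947) and 0.60 in KO (SE 0.18, limma adjusted p = 0.014), with no overlap within either genotype. The KO call was lost without KO saline replicate 3 (limma adjusted p = 0.0692) and with all 14 libraries in the fit (limma adjusted p = 0.0549). Mcm7 was at 4.88, 5.75 and 4.83 TPM in WT saline, 6.19, 5.55 and 5.70 in KO saline, 8.11, 7.24, 5.17 and 7.50 in WT ConA and 10.23, 8.51, 8.26 and 7.52 in KO ConA. It rose in KO by 0.49 (SE 0.15, limma adjusted p = 0.0143), a call lost without KO saline replicate 2 (limma adjusted p = 0.0625). In WT it differed by 0.37 (SE 0.17, limma adjusted p = 0.0944), with replicate 3 within the saline range, and without that library it was called. Only 74.0% of the 50-base stretches of the longest coding Mcm7 transcript occur in no other gene, so part of its reads cannot be placed with certainty. Mcm7 exons also share 12.6% of their bases with other genes, among them Ap4m1 and Cops6 on the opposite strand.

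Mcm2 ranged from 0.61 to 1.88 TPM and Mcm5 from 0.17 to 1.41. Mcm2 was tested after ConA and not called in either genotype (0.27 in WT, without overlap, and 0.35 in KO), and Mcm5 had too few livers at 1 TPM to be tested. Uhrf1, which recruits the maintenance DNA methyltransferase to replicated DNA, ran from 0.02 to 0.62 TPM. With no filter on TPM, 10 of 42 genes were called in WT. Uhrf1 and the mitotic kinase gene Aurkb were added as higher after ConA, and Ccnd3 lost its call (limma adjusted p = 0.0581). In KO there were then 16 of 42, with Mcm5, Ccne2 and the spindle gene Tpx2 added as higher. In each genotype the called share of the 42 was below that of all genes in the same fit. The added genes were low, with Aurkb at no more than 0.67 TPM and Tpx2 at no more than 0.75.

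Tyms, the thymidylate synthase gene, had 5.16, 4.27 and 5.20 TPM in WT saline, 4.68, 5.68 and 4.93 in KO saline, 2.41, 2.87, 2.87 and 1.70 in WT ConA and 2.32, 2.50, 2.31 and 2.15 in KO ConA. Every ConA liver was below every saline liver. It fell by 0.77 in WT (SE 0.17, limma adjusted p = 0.00383) and by 0.87 in KO (SE 0.15, limma adjusted p = 0.000337), to about 0.505 and 0.455 of the saline mean TPM. Rrm2, the regulatory subunit of the ribonucleotide reductase that makes deoxynucleotides, took another course. Its values were 5.41, 4.20 and 4.75 TPM in WT saline, 4.21, 2.92 and 2.72 in KO saline, 12.76, 3.30, 3.82 and 10.90 in WT ConA and 5.51, 8.24, 5.94 and 7.01 in KO ConA. The WT ConA livers fell into a high and a low pair on both sides of the saline range. Rrm2 rose in KO by 0.84 (SE 0.19, limma adjusted p = 0.00219), and the WT difference was 0.40 with an interval from -0.50 to 1.31 (limma adjusted p = 0.427).

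Pcna, the sliding clamp of the replication fork, was the most abundant S phase gene, at 29.72 to 47.86 TPM. It differed by -0.18 in WT and 0.02 in KO after ConA and was not called in any comparison. Its KO saline livers (36.08 to 37.30) were all below its WT saline livers (40.32 to 47.86), a difference of -0.27 that missed the threshold (SE 0.09, limma adjusted p = 0.071). Of the 50-base stretches of its longest coding transcript, 68.2% occur in no other gene.

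**Figure D3:**
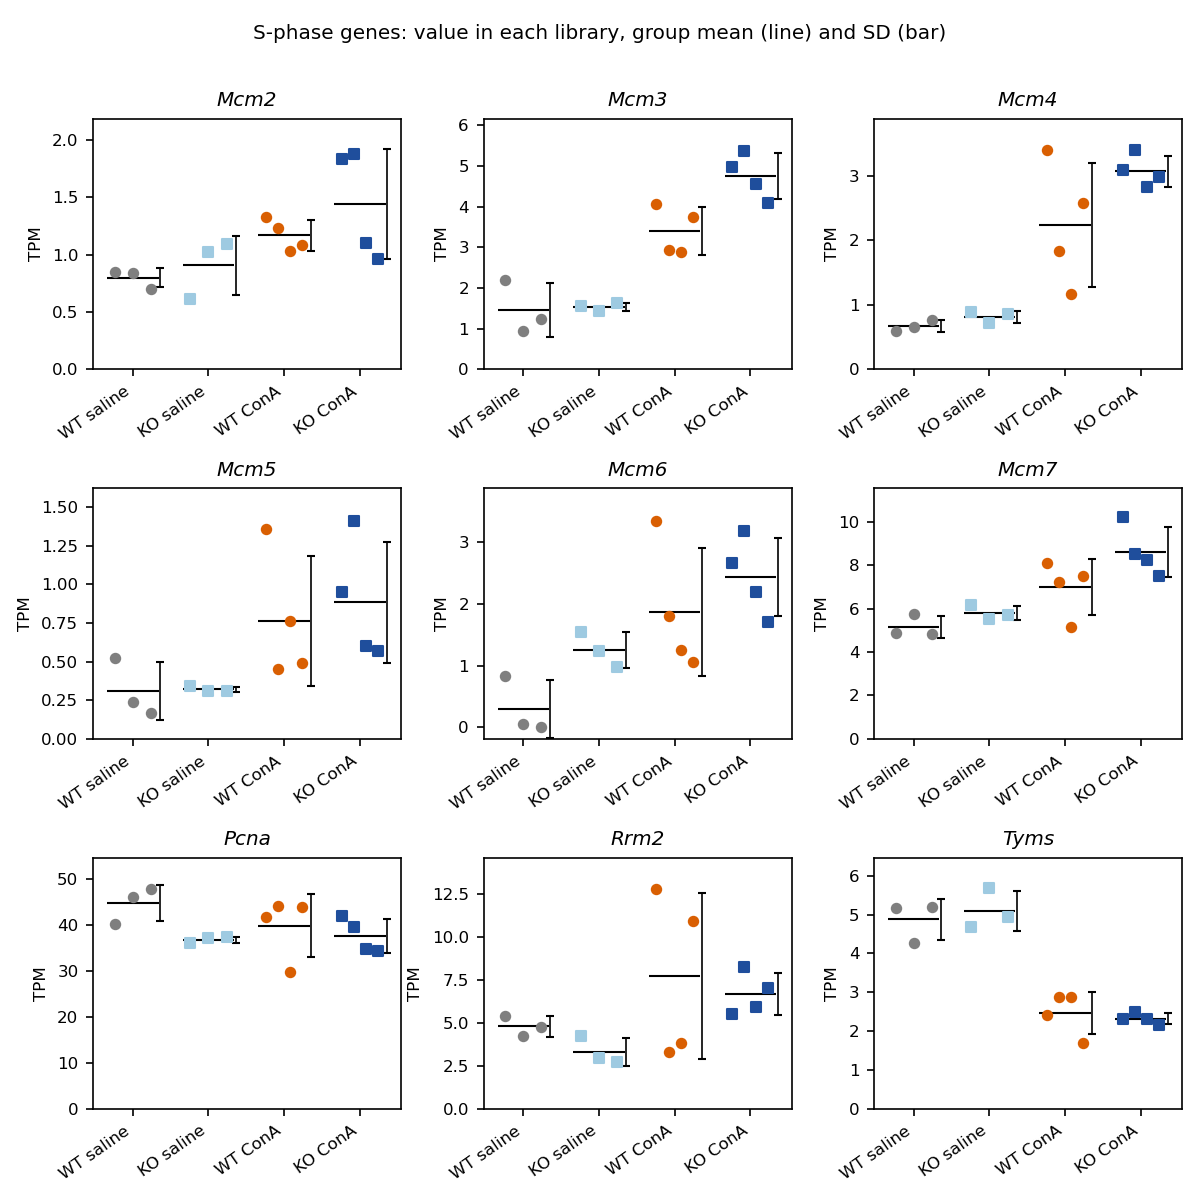
TPM (y axis) of 9 S phase genes in each of the 14 livers, by group (x axis, each point 1 mouse), with the group mean as a line and the SD as a bar. Mcm3 and Mcm4 lie higher in every ConA liver than in any saline liver, Tyms lies lower (1.70 to 2.87 against 4.27 to 5.68), and Rrm2 in WT ConA splits into 3.30 and 3.82 against 10.90 and 12.76.

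Most of the G2 and mitosis genes were low, with Pttg1, Ube2c and Aurka as the exceptions described after them. The kinases, motors and spindle and centromere proteins listed above never reached 1 TPM. Mki67, the gene of the proliferation marker Ki-67, ran from 0.10 to 1.06 TPM and Top2a, a topoisomerase that untangles sister chromatids, from 0.06 to 1.35. Ccna2 (cyclin A2) ran from 0.11 to 1.19 and Ccnb2 (cyclin B2) from 0.26 to 1.08. Cdc20, an activator of the anaphase-promoting complex, ran from 0.14 to 1.11 and Nusap1, a spindle protein, from 0.12 to 1.23. Each of these 6 genes reached 1 TPM in 1 of the 14 livers and was not tested. For Top2a, Ccna2 and Cdc20 that liver was WT ConA replicate 1, for Mki67 it was KO ConA replicate 2, for Ccnb2 WT ConA replicate 3 and for Nusap1 KO saline replicate 1. Birc5, the survivin gene, ran from 0.51 to 1.29 and entered the interaction only, where it differed by 0.08 (limma adjusted p = 0.844). Top2a was at 0.06 to 0.23 TPM in WT saline, 0.13 to 0.21 in KO saline, 0.37 to 1.35 after ConA in WT and 0.23 to 0.92 after ConA in KO, so the groups did not overlap in either genotype. For genes under the filter the tests give no call in either direction.

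Only 3 genes of this group were tested after ConA, Aurka, Ube2c and Pttg1. Aurka, the Aurora A kinase of the spindle poles, was at 1.70, 2.03 and 2.17 TPM in WT saline, 1.79, 1.92 and 2.16 in KO saline, 1.13, 1.05, 0.95 and 0.68 in WT ConA and 1.12, 1.30, 0.81 and 0.38 in KO ConA. All ConA livers were below all saline livers. Aurka fell by 0.61 in WT (SE 0.14, limma adjusted p = 0.00505) and by 0.66 in KO (SE 0.19, limma adjusted p = 0.00943). Ube2c, the ubiquitin-conjugating enzyme of the anaphase-promoting complex, ran from 0.89 to 4.61 TPM with overlap of all groups and was not called in any comparison. Its exons share 22.8% of their bases with Tnnc2 on the opposite strand, and whether counting used strand is not given in the sources used here.

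**Figure D4:**
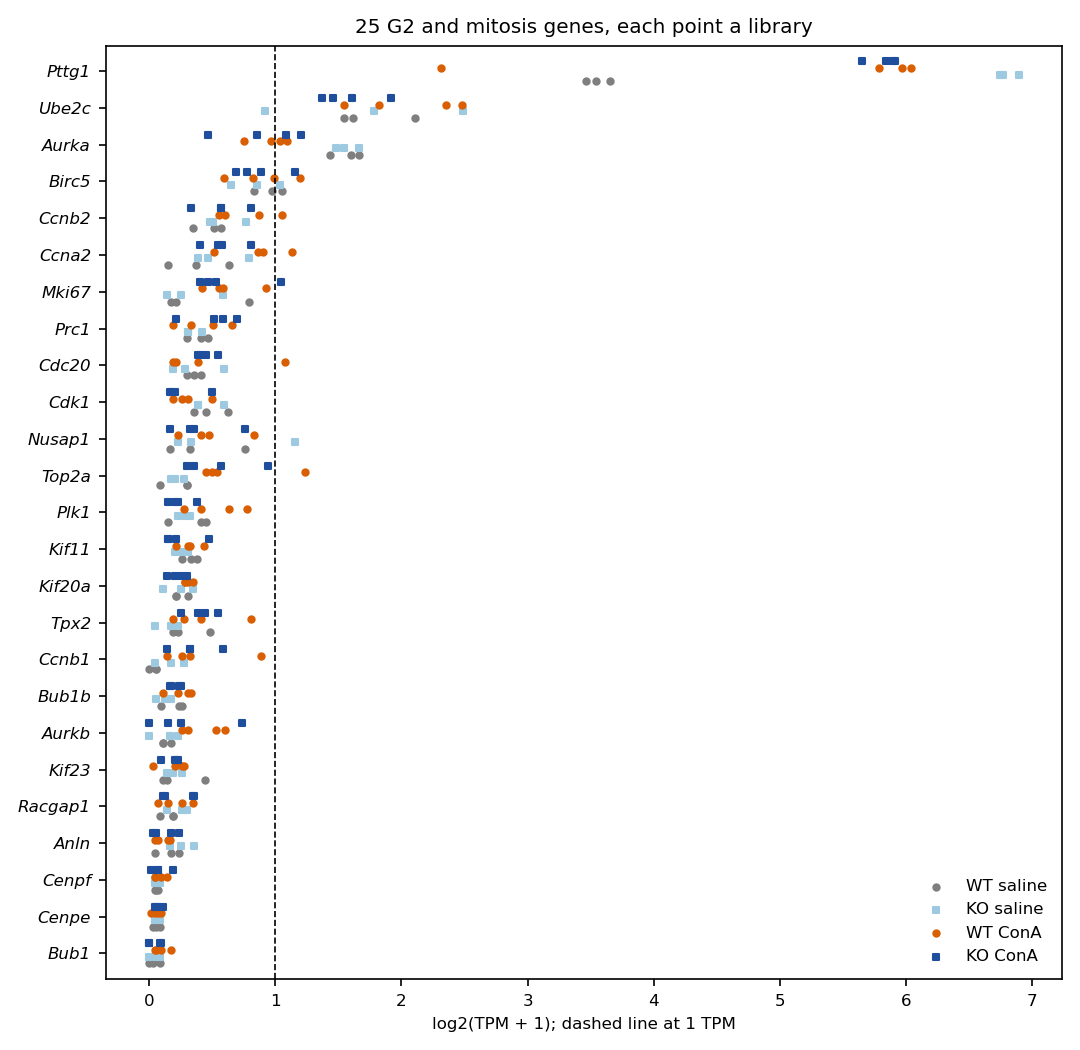
Level of the 25 G2 and mitosis genes as log2(TPM + 1) (x axis), each point 1 liver, coloured by group, genes ordered by their median over all libraries and a dashed line at 1 TPM. Only Pttg1 lies well above the line, in every liver, and 15 genes lie below it in all 14 livers.

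Pttg1 encodes securin, the inhibitor of separase that keeps sister chromatids together until anaphase, and its level differed between the saline genotypes. It was at 11.58, 10.64 and 10.06 TPM in WT saline, 108.01, 117.91 and 106.53 in KO saline, 54.29, 61.75, 65.01 and 3.96 in WT ConA and 49.27, 56.32, 58.69 and 59.25 in KO ConA. The saline groups lay far apart, KO ConA livers were at about 0.504 of the KO saline mean, and WT ConA replicate 4 was below every other liver while the other 3 WT ConA livers were near the KO ConA livers. In saline mice Pttg1 was higher in KO by 3.25 (SE 0.09, limma adjusted p = 5.25e-06), or 10.3-fold by mean TPM, and this call held under all 14 alternatives.

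After ConA, Pttg1 fell in KO by 0.98 (SE 0.11, limma adjusted p = 2.36e-05), a call that was lost with all 14 libraries in the fit (limma adjusted p = 0.187). In WT the difference was 1.48 with an interval from -0.33 to 3.28 (limma adjusted p = 0.152). Without WT ConA replicate 4 it was 2.38 (limma adjusted p = 7.47e-06). The interaction was -2.45 (limma adjusted p = 0.113) with that library and -3.36 (limma adjusted p = 4.7e-08) without it. Between the ConA groups the difference was 0.80 (limma adjusted p = 0.611) with it and -0.11 without it. Whether the sample labels, or a difference between the mouse lines other than that in Ythdf1, had a part in these Pttg1 values was not tested, so they compare the libraries as labelled. The same holds for the other genes and comparisons here. Serpina1a, a hepatocyte gene, was at 984.17 TPM in WT ConA replicate 4, below every other liver. Its saline livers were at 1954.35 to 2010.52 TPM in WT and 3295.52 to 3449.78 in KO. Of the 10 hepatocyte genes listed, it alone had both features. All 50-base stretches of the longest coding Pttg1 transcript occur in no other gene, and its exons share no base with another gene.

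The surroundings of Pttg1 (chromosome 11, 43420244 to 43427463, GRCm38.p6) were compared at the nearest listed genes that reached 1 TPM in some liver. Slu7, a splicing factor gene 6.3 kb away, was at 5.65 to 7.01 TPM in all saline livers and at 7.28 to 14.46 after ConA, and its saline genotypes overlapped. C1qtnf2, 46.8 kb away on the same side, was at 0.62, 0.14 and 0.21 TPM in WT saline, 1.81, 0.88 and 1.23 in KO saline and at most 0.20 after ConA, so its saline genotypes did not overlap. Ccng1, the cyclin G1 gene and a target of p53, lies 2664.9 kb away on the other side. It was at 11.13, 10.02 and 11.29 TPM in WT saline, 11.82, 12.74 and 12.55 in KO saline, 35.14 to 57.88 in KO ConA and 63.85, 45.21, 29.84 and 12.56 in WT ConA. Its saline genotypes did not overlap either, and their difference of 0.18 on the log2 scale was not called (limma adjusted p = 0.155). The liver with the low Pttg1 value, WT ConA replicate 4, was the only ConA liver with Ccng1 within the saline range, and Slu7 there was at 9.33 TPM, within the range of the other WT ConA livers.

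**Figure D5:**
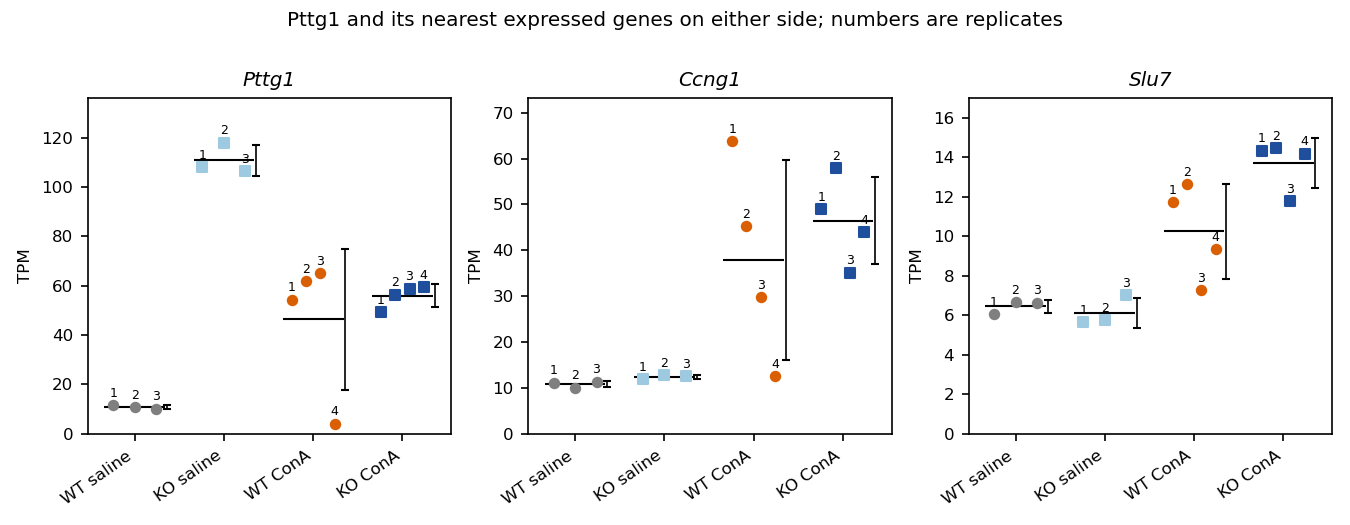
TPM (y axis) of Pttg1, Ccng1 and Slu7 in each liver, by group (x axis), numbered by replicate, with the group mean as a line and the SD as a bar. Between the saline genotypes Pttg1 lies at 10.06 to 11.58 against 106.53 to 117.91, Ccng1 at 10.02 to 11.29 against 11.82 to 12.74 without overlap, and Slu7 overlaps, and WT ConA replicate 4 is low for Pttg1 (3.96) and Ccng1 (12.56).

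Other genes of the same pathways were held in 4 lists with 77 genes. In WT mice 30 of 58 tested genes were called after ConA (15 higher and 15 lower), and in KO mice 33 of 58 (19 higher and 14 lower), shares near those of all genes. The CDKs and CDK inhibitors had 6 of 10 called in WT (3 higher and 3 lower) and 5 of 10 in KO (3 higher and 2 lower). The RB, E2F and DREAM genes had 7 of 14 called in WT (5 higher and 2 lower) and 6 of 15 in KO (4 higher and 2 lower). The replication genes had 11 of 23 called in WT (2 higher and 9 lower) and 13 of 22 in KO (5 higher and 8 lower). The quiescence and antiproliferative genes had 6 of 11 called in WT (5 higher and 1 lower) and 9 of 11 in KO (7 higher and 2 lower). Their median log2 fold changes were 0.80 in WT and 1.25 in KO, beside -0.31 and -0.30 for the replication genes.

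The listed genes with the largest rise in both genotypes are known brakes of the cycle, while other listed brakes fell. The lists hold CDK inhibitors and antiproliferative genes by design and were chosen with earlier results of these data known. This ranking therefore describes the lists only. The CDK inhibitor gene Cdkn2c went from 11.79 to 18.44 TPM in the saline livers to 3.03 to 6.44 after ConA. Tob1, of the antiproliferative list, went from 75.19 to 129.24 TPM in saline to 18.44 to 53.05 after ConA. Cdkn1a, which encodes the CDK inhibitor p21, was at 0.69 to 2.02 TPM in the saline livers, 142.89 to 211.77 after ConA in WT and 226.86 to 345.26 after ConA in KO. It rose by 6.38 in WT (SE 0.19, limma adjusted p = 7.39e-08) and by 6.56 in KO (SE 0.16, limma adjusted p = 3.79e-10). Btg2, an antiproliferative partner of mRNA deadenylases, rose by 4.48 in WT (limma adjusted p = 3.71e-07) and by 5.91 in KO (limma adjusted p = 1.58e-07), from 2.20 to 4.61 TPM in saline to 86.93 to 393.95 after ConA. Mxd1, a MAX partner that opposes MYC at E-boxes, rose by 2.86 in WT (limma adjusted p = 1.22e-06) and by 3.67 in KO (limma adjusted p = 9.22e-09). Mxd1 was the only 1 of 61 pathway genes called in the interaction (0.81, SE 0.19, limma adjusted p = 0.0334), in the same direction as Myc.

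The listed genes with the largest fall belong to the replication list, and this ranking has the same limit. Tk1, the thymidine kinase gene, went from 48.71 to 57.27 TPM in the saline livers to 1.19 to 3.29 after ConA, a fall by 3.85 in WT (limma adjusted p = 1.78e-07) and by 4.10 in KO (limma adjusted p = 7.76e-08). Gmnn, the gene of the licensing inhibitor geminin, went from 21.51 to 30.13 TPM to 2.24 to 8.68 and fell by 1.98 in WT (limma adjusted p = 1.13e-05) and by 2.49 in KO (limma adjusted p = 4.85e-06). Mcm10, a replication initiation factor, fell by 1.75 in WT (limma adjusted p = 0.000202) and by 2.38 in KO (limma adjusted p = 3.32e-05). Mcm10 thus moved against Mcm3, Mcm4 and Mcm6, whose products load before it. In saline mice 9 of 58 pathway genes were called between genotypes (1 higher and 8 lower in KO), beside 19.2% of all genes (6.30% higher and 12.9% lower). Between the ConA groups 0 of 56 were, beside 0.428% of all genes, with 7 at an unadjusted p under 0.05 in limma, beside 1753 of 10519 genes.

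Markers of other cells moved with ConA, and their part in the results above was not tested. The marker counts after ConA, here and in the remaining lists, are to be read beside the shares over all genes tested. In WT 53.0% were called (22.0% higher and 31.0% lower). In KO 64.6% were called (33.9% higher and 30.7% lower). Of the neutrophil list, 8 of 9 tested genes rose in each genotype, and Ly6g was the tested gene not called. Ly6g was at 0.57 to 5.04 TPM in WT saline and 0.18 to 1.64 in WT ConA. In KO it was at 1.61 to 2.31 TPM in saline and 1.15 to 2.47 with ConA. The sum of the 11 neutrophil genes went from 4.78 to 10.66 TPM in the saline livers to 323.96 to 573.68 with ConA in WT and 425.55 to 983.74 in KO. Elane and Mpo, markers of neutrophil precursors, were at no more than 0.26 TPM. The sum of 10 T cell genes went from 1.81 to 2.81 TPM to 4.73 to 6.90 with ConA in WT and from 3.48 to 4.10 to 7.67 to 10.72 in KO, with 1 gene called higher in each genotype of 1 and 2 tested. Among the T cell genes, Cd8b1 and Cd28 had the largest rises in mean TPM in each genotype. Mean Cd8b1 was 0.49 TPM in WT saline against 1.82 in WT ConA, and 0.37 in KO saline against 2.735 in KO ConA. Cd4 alone had a lower mean with ConA in both genotypes. Its WT means were 0.15 TPM in saline and 0.065 with ConA, and its KO means 0.23 and 0.1275. The 5 B cell genes summed to 0.67 to 4.41 TPM in all groups, with none called. All 4 tested genes of the monocyte list rose in each genotype, from sums of 129.88 to 223.87 TPM in saline to 286.60 to 586.44 after ConA, but Fn1, the fibronectin gene that hepatocytes also express, made up most of each sum (128.33 to 223.21 TPM in saline and 271.04 to 543.11 after ConA), and Ccr2 was at no more than 1.09 TPM. Kupffer cell and macrophage genes fell in 6 of 8 cases in WT and in 4 of 8 in KO, where 1 rose, with sums that went from 70.19 to 120.49 TPM to 8.99 to 36.92 in WT and from 30.78 to 66.44 to 10.89 to 29.63 in KO. Hepatocyte genes fell in 7 of 10 cases in WT and 8 of 10 in KO, with sums of 152880.86 to 181037.50 TPM in saline and 67133.45 to 99675.18 after ConA, so the labelled tissue carried its defining markers throughout.

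Of the remaining lists, erythroid genes fell in 2 of 8 cases in WT and 7 of 8 in KO, where 1 rose, and KO saline replicate 1, which had the only Nusap1 value over 1 TPM, had the highest sum, 17135.05 TPM against 826.73 to 4354.69 in the other livers. Sinusoidal endothelial genes fell in 3 of 7 cases in WT and 4 of 7 in KO, with 1 higher in each, and their sums ran from 16.89 to 60.82 TPM. Stellate cell genes fell in 3 of 6 cases in KO and 0 of 2 in WT (sums 15.90 to 102.59 TPM), and cholangiocyte genes rose in 3 of 5 cases and fell in 1 in WT, with 1 each way in KO (sums 18.73 to 89.41 TPM). Between the saline genotypes, 4 of 6 endothelial, 2 of 6 stellate, 2 of 4 cholangiocyte and 1 of 8 erythroid genes were higher in KO. Of the hepatocyte genes 3 of 10 were called (2 higher and 1 lower). Over all genes tested, 19.2% were called between the saline groups (6.30% higher and 12.9% lower). In the interaction 1 of 9 erythroid genes was lower and 1 of 10 hepatocyte genes higher, beside 4.78% of all genes called (2.64% higher and 2.14% lower). Between the ConA groups none of the 50 markers tested was called, beside 0.428% of all genes, and no B cell gene was tested. At an unadjusted p under 0.05 in limma there were 15 of the 50, among them 7 of 9 neutrophil genes, beside 1753 of 10519 genes in all.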

How the data were processed

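Total liver RNA of 14 mice was sequenced as single reads of 50 bases on a BGISEQ-500 instrument, and the authors deposited 1 table of TPM values per mouse, with 17656 genes that sum to 1000000. The submitters' processing notes name Bowtie2, RSEM 1.3.1 and GRCm38.p6, whereas the study's methods name STAR and HTSeq, so which tools made the TPM values is uncertain. The annotation and the use of strand are not given in the sources used here. TPM carries no read counts, so no counting test was possible and depth is unknown.

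Groups were taken from the labels, which call the mice of a group independent replicates. Per comparison, limma 3.58.1 (R 4.3.3, eBayes with trend) was fitted to log2(TPM + 1) of the compared groups, or to all 14 libraries for the interaction (the ConA response in KO minus that in WT), with the filter and adjustment described above. The procedure was tested on simulated data. Intervals are 95%. Members called in at least 1 of 5 comparisons are given in every library, the others by range or name. For each of the ConA comparisons, the 3 called pathway genes with the largest change in each direction are named, except 1 result that is not reported here. The members and lists were chosen with earlier results of these data known. Alternatives were another pseudocount (0.1), a filter at 5 TPM or none, TPM rescaled per library, robust eBayes, all 14 libraries in the fit, a replicate block, averaging 2 alike libraries, and leaving out libraries. RefSeq gave gene positions (17600 of 17656 genes and 42 of 42 members matched) and promoter windows, and GENCODE vM21 gave the exons and transcripts used for read sharing.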

Additional observations from a re-analysis of the deposited data

Results flagged for a closer look

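In groups of 4 mice, a library was taken to stand apart where the gap to its nearest neighbour, as a share of the group's range on log2(TPM + 1), was above Dixon's critical value for 4 values at the 95% level. Chance flags about 1 in 20 groups, and 5 of 50 pairs of gene and group (10.0%) were above it, all 5 of them in WT ConA. Pttg1 in WT ConA replicate 4 had the largest ratio, 0.932, at 3.96 TPM against 54.29 to 65.01 in the other 3 livers. Replicate 3 was apart for 3 genes, Wee1 with a ratio of 0.864 (0.48 TPM against 1.32 to 1.49), Myc with 0.863 (4.87 TPM against 6.70 to 7.04) and Pcna with 0.852 (29.72 TPM against 41.71 to 44.23), each time as the lowest liver. Top2a in WT ConA replicate 1 had a ratio of 0.895 as the highest liver, at 1.35 TPM.

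The ConA response differed between the genotypes for Wee1, by 1.71, and for Myc, by 0.94, on the log2(TPM + 1) scale in the interaction test of limma. Without WT ConA replicate 3, the Wee1 difference was 1.53 and still called (limma adjusted p = 0.00188), while that of Myc was 0.84 and not called (limma adjusted p = 0.0601). The call of Myc was lost under 17 of 22 alternatives and that of Wee1 under none of 21. The causes of these 7 results were not tested.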

How the results depend on the processing

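No call reversed its direction. Of 83 counts of called genes under an alternative, 56 stayed within 1.5 times the main count and 27 moved. Of 1061 values of single genes, 1013 kept their side of the threshold, 37 lost and 11 gained a call. Most of the 1061 belong to comparisons in which the gene was not called in the main fit, where no call can be lost. Alternatives in which a gene failed the filter are not among the 1061. With a filter at 5 TPM fewer of these genes were tested. After ConA, 2 of 7 were called in WT, a smaller share than over all genes of that fit. In KO it was 6 of 7, a larger share than over all genes. With that filter 1 was called between the saline groups and 1 in the interaction (Myc). The counts of called genes that follow are not set beside all genes of the same fit. They cannot tell a change in these genes from a change in the whole fit. With WT saline replicates 2 and 3 averaged, 1 was called between the saline groups and 1 in the interaction. The interaction also had 1 call with a pseudocount of 0.1, with no filter, with rescaled TPM and with the replicate block. Between the ConA groups 1 was called with the replicate block and 2 with all 14 libraries in the fit. Leaving out 1 library gave 7 to 10 calls in WT, 12 to 13 in KO, 1 to 4 between the saline groups (4 without WT saline replicate 1, where Mcm6 and Pcna were added, and 1 without replicate 2 or 3), 0 to 0 between the ConA groups and 1 to 3 in the interaction (3 without WT ConA replicate 4, where Pttg1 was added). Apart from the numbers of genes and libraries, the cause of these changes was not tested. Livers that share a replicate number did not deviate together throughout any comparison (correlations from -0.189 to 0.405). The highest values were 0.405 for number 3 between the ConA groups and 0.342 for number 1 between the saline groups. The mice were not treated as paired, and whether the numbers mark a pairing was not tested further. With the replicate block 9 genes were called after ConA in WT, 13 in KO and 3 between the saline groups. In those fits a replicate 4 without a partner adds nothing to the ConA difference. Depth is unknown, which leaves the error of genes near or under 1 TPM open to counting noise that these tables cannot show.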
